A study of Mus musculus with 18 samples.

Results

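EGF and TCDD were added together to mouse C3H10T1/2 cells that were being pushed toward the fat cell fate by an adipogenic mix, and the resulting mRNA levels were compared with those under the mix alone. C3H10T1/2 is an established line of embryonic fibroblasts. The comparison used 5 of the 18 arrays of the series, chosen by their titles: IDMB + EGF + TCDD 1 and 2 against IDMB 1 to 3. The departure of the joint change from the sum of the separate changes also used the 2 arrays of IDMB + TCDD and the 2 of IDMB + EGF, which made 9 arrays, and the 3 arrays labelled UT, with none of the agents, gave the level without the mix (the labels do not spell out UT). Comparisons with cells without the mix also used the arrays labelled TCDD, EGF and EGF+TCDD. All tests took their spread from 1 fit to all 18 arrays. All 4 groups with the mix carried BRL49653 (rosiglitazone) at 1 µM, dexamethasone at 1 µM, IBMX at 0.5 µM and insulin at 10 µg/mL over 24 h; the IBMX dose is as labelled, and its unit is uncertain because such mixes usually hold far more. Cells with TCDD had it at 10 nM through 72 h, and cells with EGF had it at 10 nM through 24 h. The mRNA of 6 cultures was pooled for each array; serum had been withdrawn 72 h earlier and confluence reached 24 h earlier. The labels do not say whether the pools of a group came from separate experiments, so the p-values measure the spread between arrays within the 8 groups of the series, which may be technical.

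Rosiglitazone binds PPARG, the nuclear receptor that drives genes of lipid storage, while dexamethasone, IBMX and insulin act through the glucocorticoid receptor, cAMP and the insulin receptor. TCDD is a ligand of the aryl hydrocarbon receptor (AhR), which enters the nucleus, pairs with ARNT and switches on genes of xenobiotic metabolism, and it is known to block adipogenesis. EGF activates its receptor tyrosine kinase and the MAPK cascade, induces immediate early genes and growth, and can also hold preadipocytes back from differentiation.

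Signal intensities are given as deposited. For tests, values under a floor of 143.5 (the 20th percentile over all arrays) were raised to it and log2 was taken. Where an array of the lower group lay under the floor, the fold is a lower bound and is written as "at least". A probe entered the test when its largest mean among the 8 groups was not under the overall log2 median. Some genes can thus enter only through the group where they are high, and their direction of change is then partly set by the filter. A gene was called where the limma p-value was under 0.05 after Benjamini-Hochberg adjustment across all 7134 tested probes. The ratio of 3' to 5' control probes, a measure of RNA integrity, was higher with both agents than with the mix alone. For Gapdh it was 2.13 and 2.86 on the joint arrays against 1.19 to 1.73 on the IDMB arrays, and for actin it was 2.48 and 3.80 against 1.80 to 2.25. Those actin ratios were the highest of the series. Each list count with joint calls below is also given with the Gapdh and the actin ratio as a covariate. List counts for TCDD, for EGF and against UT are given without these covariates. The lists and their members were chosen with earlier results of these data known. Their shares beside those of all genes are thus a description and not an independent test. Of the fibroblast markers, Fap was at the floor on all 5 arrays, and the summed signal of the 15 on the array was 277190 to 315340 with the mix and 383651 to 388985 with both agents. Summed macrophage and leukocyte markers ranged from 7677 to 10347 and from 8717 to 10918, with Ptprc, Adgre1, Itgam, Aif1 and Lyz2 at the floor on all 5 arrays. The endothelial markers Cdh5, Cldn5 and Nos3 and the epithelial markers Krt14, Krt19 and Cldn7 were also at the floor there. These sums were 10711 to 13101 against 9503 to 11595 for endothelial and 4157 to 7079 against 4402 to 4411 for epithelial markers. Skeletal muscle markers gave 7404 to 11745 against 9377 to 10995, and bone and cartilage markers 4027 to 6102 against 7628 to 11143.

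Of 5436 genes tested, 203 were higher (3.73%) and 192 lower (3.53%) with EGF plus TCDD than with the mix alone, and the median change over all genes was log2 0.03. TCDD in the mix gave 3.24% of genes higher and 3.72% lower, and EGF in the mix 2.12% higher and 1.97% lower; these comparisons use the same IDMB arrays. The signals of the joint and the IDMB arrays did not overlap for 2013 genes, or 37%. Of the 395 genes called, 60 were called in each of the 5 fits that left out 1 of the arrays compared, 28 of them higher and 32 lower. By probes, 486 were called, against 119 without IDMB + EGF + TCDD 2, 178 without IDMB + EGF + TCDD 1 and 269 without IDMB 2. With the Gapdh ratio as a covariate 98 probes were called, and with the actin ratio 45. Of the 55 joint calls among the genes named here, 31 were kept with the Gapdh ratio and 17 with the actin ratio; the 17 were Ccn5, Synpo, Apcdd1, Ephx2, Plin2, Pnpla2, Abhd5, Gpam, Aldh3a1, Adh7, Ccl9, Celf2, Tmem176a, Cacna1g, Acta2, Thy1 and Lox.

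Ccn5 and Synpo rose and Apcdd1 and Plin4 fell with the joint treatment, each in all of these leave-one-out fits. Ccn5, a secreted matricellular protein of the CCN family that is also known as WISP2 and holds preadipocytes undifferentiated, had signals of 2075, 3377 and 3427 on the IDMB arrays and 19205 and 23154 on the joint arrays. It measured 7675 and 7419 with TCDD and 9803 and 5592 with EGF. Both joint arrays thus lay above all 10 other arrays of these groups, UT included (9047, 8787 and 6855), and the rise was 7.31-fold (log2 2.87, SE 0.26, limma adjusted p = 7.81e-06). TCDD in the mix gave 1.39 and EGF in the mix 1.36, a sum of 2.75, and the departure of 0.12 had a 95% interval of -0.69 to 0.94.

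Synpo, the gene of synaptopodin, which bundles actin in podocytes and other contractile cells, had signals of 805, 804 and 1262 with the mix. It reached 3069 and 1795 with TCDD, 4380.5 and 4448 with EGF and 6377 and 6887 with both. The joint arrays were the highest with the mix, and the rise was 7.09-fold (log2 2.83, SE 0.27, limma adjusted p = 1.18e-05). It was below the sum of 3.57, with a departure of -0.74 (interval -1.60 to 0.12) that was not called.

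Apcdd1, a membrane-bound inhibitor of Wnt signalling, had signals of 5285, 12395 and 8214 with the mix, 1529 and 1361 with TCDD, 1351 and 1724 with EGF and 1033 and 709 with both. The 2 joint arrays were the lowest with the mix and lay in the range of UT or just above it (792, 969.8 and 658). The joint fall was 9.5-fold (log2 -3.25, SE 0.31, limma adjusted p = 1.18e-05). The separate falls of -2.50 and -2.41 summed to -4.91, and the departure of 1.66 (interval 0.68 to 2.65, adjusted p = 0.108 by limma) was not called.

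Plin4, a perilipin that coats nascent lipid droplets, had signals of 4978, 2962 and 3434 with the mix and 1384 and 999 with EGF. Under TCDD it measured 54.2 and 347, and with both agents 130.3 and 108, both under the floor. The joint level was therefore at least 25.8-fold lower (log2 -4.69, SE 0.61, limma adjusted p = 0.000217). With the actin ratio as a covariate its call was lost (adjusted p = 0.0587), while Ccn5, Synpo and Apcdd1 kept theirs under both covariates.

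**Figure D1:**
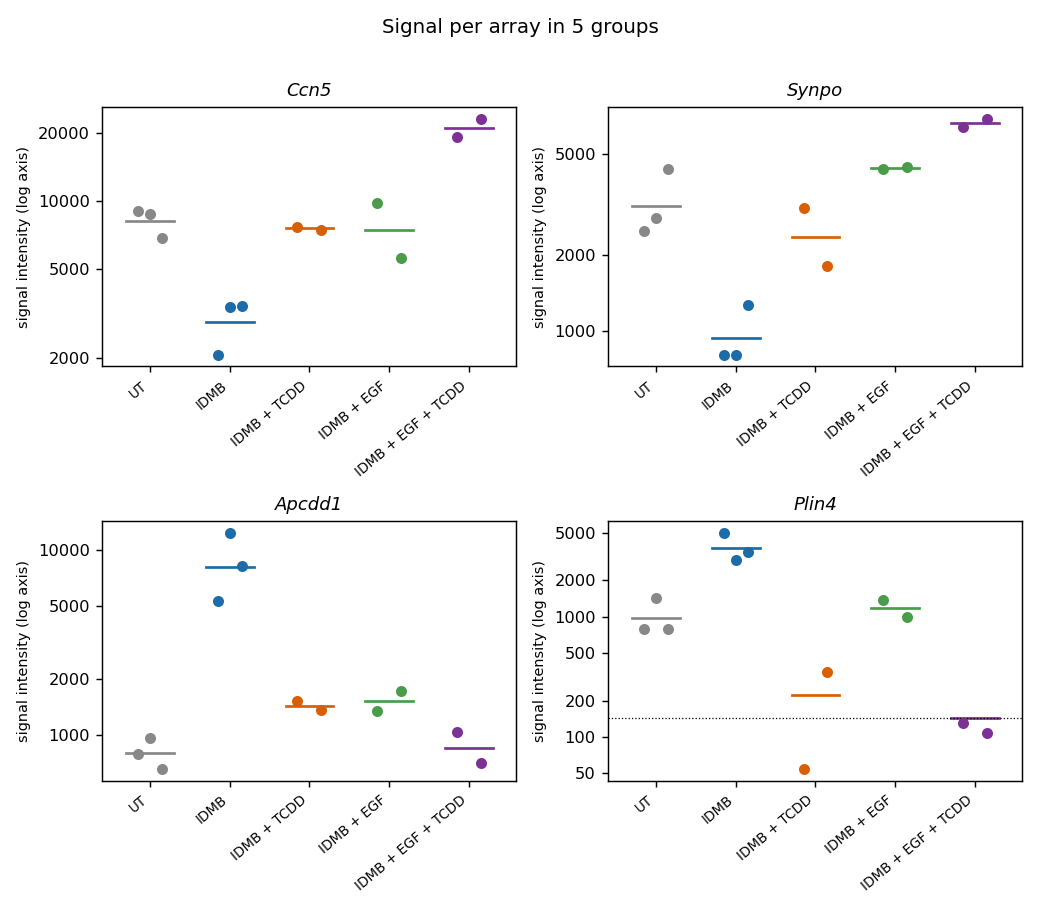
Signal per array (log axis) of Ccn5, Synpo, Apcdd1 and Plin4 in the UT, IDMB, IDMB + TCDD, IDMB + EGF and IDMB + EGF + TCDD groups; points are arrays, bars are the means of the floored log2 values and the dotted line is the floor of 143.5, drawn where a value lies near it. The 2 joint arrays are the highest of the mix groups for Ccn5 and Synpo, the lowest of the mix groups for Apcdd1, and under the floor for Plin4.

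Many adipocyte and PPARG target genes fell, and none rose. The adipocyte and PPARG target list held 39 genes; the array had 31 of them and the low-signal filter kept 21. Of these 21, 11 fell, none rose and 10 were not called. The median change was log2 -1.44 beside 0.03 for all genes, and 3.53% of all genes fell. Because the filter goes by the highest group mean, a member high only with the mix enters with more room to fall than to rise. The share lower and the absence of rises may partly reflect this, and the list was not counted under another filter. TCDD in the mix lowered 9 of the 21 (median -1.07) and EGF 5 (median -0.64). The summed signal of the 31 was 248710 to 271791 with the mix and 73947 to 80753 with both agents. Since the arrays read RNA of whole cultures, fewer fat-forming cells and less of this RNA per cell cannot be told apart. The count of 11 was 7 without IDMB + EGF + TCDD 1, 6 without IDMB + EGF + TCDD 2, 12 without IDMB 1, and 5 and 4 with the Gapdh and the actin ratio as covariates.

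Among the proteins at the droplet surface, Plin2, which coats droplets in most cells, had signals of 61174, 90973 and 81397 with the mix and 14592 and 13097 with both agents. TCDD gave 18009.9 and 21073 and EGF 37424 and 45781, so the joint arrays were lowest and the EGF arrays the least lowered. The joint fall was 5.56-fold (log2 -2.47, SE 0.22, limma adjusted p = 7.59e-06). Pnpla2, the triglyceride lipase ATGL, measured 24279.9, 23943 and 20749 with the mix, 5496 and 6532 with TCDD, 8356 and 10791 with EGF and 6114 and 4438 with both. Its joint fall of 4.4-fold (log2 -2.14, SE 0.19, limma adjusted p = 7.59e-06) came close to that under TCDD (3.83-fold), and the joint and TCDD arrays overlapped. Abhd5, the coactivator of that lipase, went from 21759.9, 16013 and 15634 to 3749 and 3645, a fall of 4.76-fold (log2 -2.25, SE 0.25, limma adjusted p = 6.77e-05). Abhd5 measured 6416 and 7091 with TCDD and 4478 and 6629 with EGF, so here the joint arrays lay below all arrays with a single agent.

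Ephx2, soluble epoxide hydrolase, had signals of 3825, 7698 and 3786 with the mix, 484 and 558 with TCDD and 1226 and 1156 with EGF. With both agents it measured 330.3 and 79.4, the second of which was under the floor. The joint fall was at least 22.1-fold (log2 -4.47, SE 0.50, limma adjusted p = 5.88e-05), at least 33.5-fold without IDMB + EGF + TCDD 1 and 14.6-fold without IDMB + EGF + TCDD 2. Ephx2 and the 3 genes above kept their calls in each leave-one-out fit. Adipoq, which encodes adiponectin, a hormone released by fat cells, fell from 1589.5, 1593 and 1378 to 185 and 476 (log2 -2.35, SE 0.51, limma adjusted p = 0.0105), a call lost without IDMB + EGF + TCDD 1 (adjusted p = 0.165); the fall was 3.18-fold there, 8.2-fold without IDMB + EGF + TCDD 2 and 5.11-fold with all arrays. Agt, the angiotensinogen gene, fell from 2144, 1404 and 2608 to 250.5 and 219 (log2 -3.09, SE 0.57, limma adjusted p = 0.00412), a call lost without IDMB + EGF + TCDD 2 (adjusted p = 0.0574).

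Lpl, lipoprotein lipase, went from 2028, 1955 and 1437 with the mix to 46.9 and 36.6 with both agents, all under the floor, so it was at least 12.4-fold lower (log2 -3.64, SE 0.72, limma adjusted p = 0.00653). The call was lost without IDMB + EGF + TCDD 1 (adjusted p = 0.0522) or IDMB + EGF + TCDD 2 (0.0651), and a second Lpl probe gave -1.88 (adjusted p = 0.15). The other members called lower were Hp, Dgat1 and Fabp5. Fabp4, the fatty acid binding protein of fat cells (-1.07, adjusted p = 0.0964), Lipe, hormone-sensitive lipase (-1.18, 0.0961), and Angptl4, an inhibitor of lipoprotein lipase (-1.44, 0.107), did not pass the limma test.

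**Figure D2:**
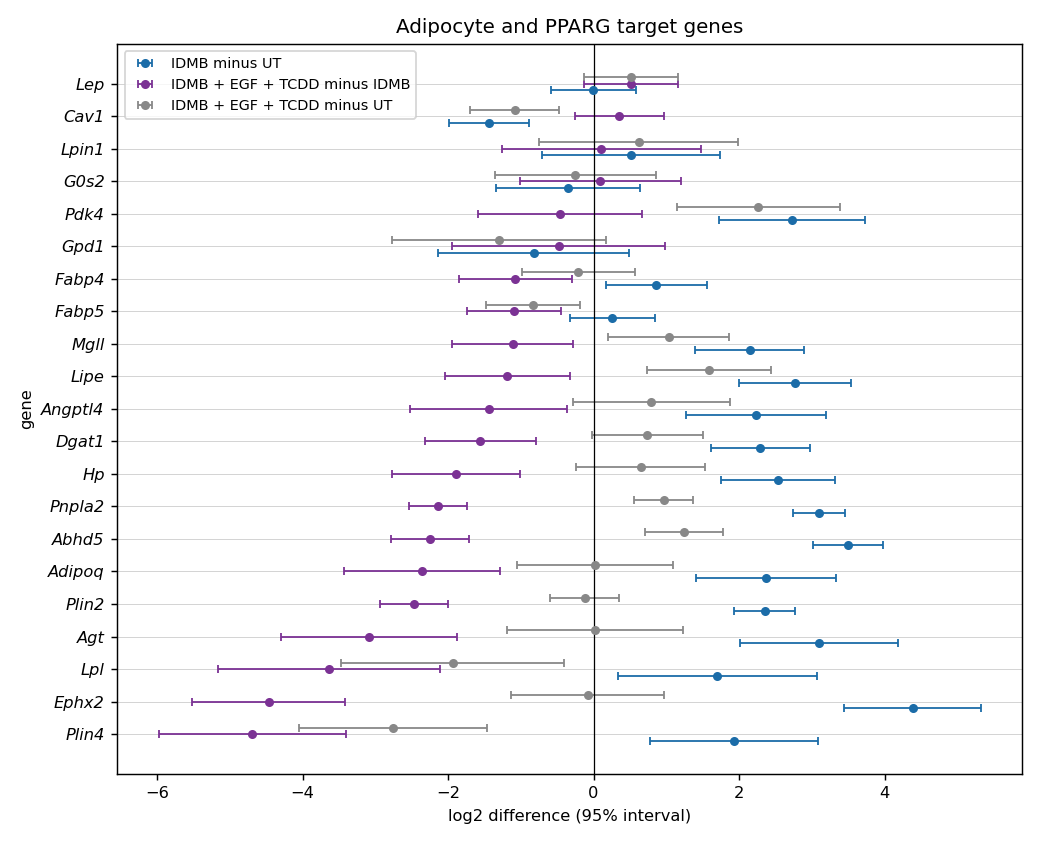
Log2 differences with 95% intervals for the 21 adipocyte and PPARG target genes that passed the signal filter: IDMB minus UT, IDMB + EGF + TCDD minus IDMB and IDMB + EGF + TCDD minus UT. From Fabp4 down to Plin4 the joint changes lie below 0, and for Adipoq, Plin2, Agt and Ephx2 the joint level lies near UT.

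Of 16 adipogenic transcription factors that passed the filter (19 on the array), 3 fell and 2 rose. The shares of all genes were 3.53% and 3.73%, and the median of the list was 0.11. The counts were 3 and 0 without IDMB + EGF + TCDD 1 and 1 and 0 without IDMB + EGF + TCDD 2, 1 and 0 with the Gapdh ratio and 0 and 0 with the actin ratio. Pparg itself went from 4099.5, 2624 and 2273 to 931 and 455 (4.46-fold lower, log2 -2.16, SE 0.38, limma adjusted p = 0.0031), a call lost without IDMB + EGF + TCDD 2 (adjusted p = 0.0835). Its differences with TCDD (2.42-fold lower) and with EGF (2-fold lower) were not called. Srebf1, a regulator of lipid synthesis, fell from 12368, 13161 and 13829.7 to 7388 and 7624, without overlap (1.75-fold, log2 -0.80, SE 0.14, limma adjusted p = 0.00268). The call was lost with the Gapdh ratio (adjusted p = 0.103) and the actin ratio (0.19) as covariates.

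Klf5, an early factor of adipogenesis, had signals of 1502, 2053 and 1259.8 with the mix and 852 and 191 with both agents, which lie far apart. Its fall of 3.89-fold (log2 -1.96, SE 0.54, limma adjusted p = 0.039) was lost without IDMB + EGF + TCDD 2 (adjusted p = 0.473), IDMB 1 (0.0671), IDMB 2 (0.126) or IDMB 3 (0.0527), with 8.21-fold without IDMB + EGF + TCDD 1 and 1.84-fold without IDMB + EGF + TCDD 2. Klf4 and Egr2, both early inducible factors, were the members that rose. Cebpa, a late partner of PPARG, measured 6079, 12415 and 16147 and 3823 and 4411 (-1.38, adjusted p = 0.0752 in limma) and was not called. It was called with the mix arrays only (adjusted p = 0.0444), with array weights (0.01) and without IDMB 1 (0.0212). Also not called were the early factors Cebpb (0.58, interval 0.19 to 0.97) and Cebpd (0.23, interval -0.16 to 0.61). Among 11 genes of fatty acid synthesis, only Gpam, which adds the first acyl chain in glycerolipid synthesis, was called (12913, 19067 and 13633 against 3788 and 3177, 4.32-fold lower, log2 -2.11, SE 0.21, limma adjusted p = 1.52e-05). Scd1, stearoyl-CoA desaturase, overlapped between the groups (-1.29, adjusted p = 0.0704 in limma). No gene of cholesterol synthesis (12) was called, 1 of 16 genes of fatty acid oxidation rose (Acaa2) and 2 of 35 of oxidative phosphorylation fell (Ndufa9 and Mdh2). Of all genes 3.73% rose and 3.53% fell. Gpam was called with both covariates, Acaa2 with neither, and the 2 of oxidative phosphorylation became 1 with the Gapdh and 0 with the actin ratio.

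Most AhR targets that were tested rose with the joint treatment. Of 12 that passed the filter (16 on the array), 8 were higher and none lower, with a median of 1.46; 3.73% of all genes were higher. TCDD in the mix raised 6 of the 12 (median 0.79) and EGF none (median 0.16). The 8 became 6 without IDMB + EGF + TCDD 1, 5 without IDMB + EGF + TCDD 2, and 4 and 2 with the Gapdh and the actin ratio as covariates. AhR with ARNT binds DNA at sites with the core GCGTG. Promoters of 3 targets, with that core in capitals on either strand (GCGTG or its reverse complement CACGC), are shown because they are the genes through which the receptor's activity is usually read. They run from 250 bases before to 50 after the RefSeq start in GRCm38.p6, written 5′ to 3′ on the gene's strand, for Cyp1a1 (chr9:57697363-57697662, plus strand), Cyp1b1 (chr17:79715012-79715311, minus strand) and Tiparp (chr3:65528197-65528496, plus strand).
Cyp1a1: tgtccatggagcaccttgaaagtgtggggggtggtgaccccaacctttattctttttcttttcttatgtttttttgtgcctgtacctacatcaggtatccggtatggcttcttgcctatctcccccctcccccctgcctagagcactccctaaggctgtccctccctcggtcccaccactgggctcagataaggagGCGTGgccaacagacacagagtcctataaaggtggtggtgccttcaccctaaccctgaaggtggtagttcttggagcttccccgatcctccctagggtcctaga
Cyp1b1: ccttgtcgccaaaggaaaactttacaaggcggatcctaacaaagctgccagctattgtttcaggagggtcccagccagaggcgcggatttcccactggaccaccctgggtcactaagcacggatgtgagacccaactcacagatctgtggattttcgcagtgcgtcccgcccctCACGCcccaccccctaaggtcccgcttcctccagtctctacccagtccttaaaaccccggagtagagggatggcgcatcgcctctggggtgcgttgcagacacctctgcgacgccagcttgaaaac
Tiparp: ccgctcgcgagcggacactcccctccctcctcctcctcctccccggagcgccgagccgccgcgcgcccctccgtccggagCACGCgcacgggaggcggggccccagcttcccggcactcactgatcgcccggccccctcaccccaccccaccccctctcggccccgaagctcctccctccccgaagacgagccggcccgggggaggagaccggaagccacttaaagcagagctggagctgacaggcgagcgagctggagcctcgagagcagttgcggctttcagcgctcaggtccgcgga
Of the 12 targets, 8 had a promoter in the RefSeq table, and the core was found in 5 of the 8 (62.5%), beside 32.4% of all 32851 promoters of that length. It was found in 21 of 35 G2 and mitosis genes (60%) and in 6 of 13 adipocyte genes (46.2%). The lists were counted by gene, and a gene can have several promoters, while the background was counted by promoter, so the shares are not fully alike. A match of 5 letters is a description of the sequence and not a binding site.

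Aldh3a1, an aldehyde dehydrogenase and a classical AhR target, showed the largest joint rise of all genes that met the rule for naming. It had signals of 1091, 1308 and 1069 with the mix, 25607 and 22060.2 with TCDD, 4129.5 and 1749 with EGF and 58835 and 69748 with both. The joint arrays lay above the TCDD arrays, and the rise was 55.6-fold (log2 5.80, SE 0.33, limma adjusted p = 4.94e-08), with 5.40 by a second probe. Its sum was 5.59, and the departure of 0.21 was not called. The second probe gave a departure of 2.39, also not called (limma adjusted p = 0.0843), so the 2 probes differ in how far the rise exceeds the sum. Cyp1b1, whose promoter is printed above, had signals of 57469.7, 57694 and 46908 with the mix, 129915 and 122464 with TCDD, 48369.8 and 53502 with EGF and 155982 and 148566 with both. The EGF arrays of this cytochrome P450 overlapped those with the mix alone, and the joint rise was 2.83-fold (log2 SE 0.18, limma adjusted p = 0.000165).

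Cyp1a1, the most used reporter of AhR activity, was dim. It measured 266, 260.2 and 358 with the mix, 694 and 349 with TCDD and 570.1 and 56.9 with EGF, the last under the floor. Only the joint arrays stood clear of these (1879 and 1947), with a rise of 6.56-fold (log2 2.71, SE 0.60, limma adjusted p = 0.0121) that was lost without IDMB + EGF + TCDD 1 (adjusted p = 0.0923) or IDMB + EGF + TCDD 2 (0.108). The departure of 1.99 (interval 0.10 to 3.88) was not called (adjusted p = 0.333 in limma). Tiparp, a mono-ADP-ribosyltransferase that represses AhR, went from 2764, 5376 and 4041 to 12161 and 10758 (log2 1.55, SE 0.33, limma adjusted p = 0.01), lost without IDMB + EGF + TCDD 1 (adjusted p = 0.0954) or IDMB + EGF + TCDD 2 (0.0704). Nqo1, a quinone reductase, went from 3623, 2189 and 3809.6 to 9719 and 11911 (log2 1.79, SE 0.23, limma adjusted p = 0.000217), at the level of the TCDD arrays (10203 and 10416).

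Adh7, an alcohol dehydrogenase of retinol metabolism, rose from 1725, 3769 and 1843 to 12954 and 10655 (log2 2.36, SE 0.31, limma adjusted p = 0.000217) and was as high with only TCDD in the mix (16369 and 10868). Nfe2l2, the antioxidant factor NRF2, rose by 1.24 (adjusted p = 0.00229 in limma). Ahr mRNA went from 1302, 889 and 1464 to 2865 and 3582 (log2 1.43, SE 0.30, limma adjusted p = 0.0101), lost without IDMB + EGF + TCDD 2 (adjusted p = 0.122). TCDD in the mix gave it 0.44 and EGF in the mix 0.86, neither called. Of 26 genes of the NRF2 and glutathione list 3 rose (Nfe2l2, Nqo1 and Sod3) and none fell, beside 3.73% and 3.53% of all genes. The 3 became 2 with the Gapdh and 0 with the actin ratio. Sod3, extracellular superoxide dismutase, had the largest of these changes (log2 2.22, SE 0.29, limma adjusted p = 0.00025).

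Genes that respond to EGF and MAPK rose in part. Of 24 that passed the filter, 8 were higher, none lower and 16 not called (median 0.45), beside 3.73% of all genes higher. EGF in the mix raised 4 (median 0.15) and TCDD 1 (median -0.10). The 8 were 2 without IDMB + EGF + TCDD 1 or 2, 4 without IDMB 1 or 3, 5 without IDMB 2, and 0 with either covariate. Egr1, a zinc finger immediate early gene, had signals of 1162, 1644 and 1307 with the mix, 11417 and 14685 with EGF and 15107 and 17472 with both. TCDD gave 10709.5 and 1199.8, a wide spread within the pair. The joint rise of 12-fold (log2 3.58, SE 0.64, limma adjusted p = 0.0032) was kept in each leave-one-out fit, beside 9.54-fold with EGF. Emp1, an epithelial membrane protein, also kept its rise (log2 1.80, SE 0.30, limma adjusted p = 0.00178).

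Fos, a subunit of AP-1, went from 139.6, 259 and 82.0 to 844 and 947 (log2 2.36, SE 0.58, limma adjusted p = 0.0241), lost without IDMB + EGF + TCDD 1 (adjusted p = 0.125), IDMB + EGF + TCDD 2 (0.163), IDMB 1 (0.0543) or IDMB 3 (0.0564); IDMB 1 and 3 lay under the floor. Dusp6, the phosphatase that switches off ERK, went from 552, 302 and 418 to 1569 and 1977 (log2 2.10, SE 0.52, limma adjusted p = 0.0248), lost without IDMB + EGF + TCDD 1 (adjusted p = 0.105), IDMB + EGF + TCDD 2 (0.185) or IDMB 2 (0.0865). Fosl1, another AP-1 subunit, overlapped between the groups (0.18, interval -0.67 to 1.04). Ier2, Phlda1, Cxcl1 and Egr2 were the other members called. Plat, tissue plasminogen activator, rose from 631, 695 and 409 to 2920.4 and 3499 (5.67-fold, log2 2.50, SE 0.31, limma adjusted p = 0.00019), close to its level with only EGF in the mix (2718 and 2949).

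Genes of cell division leaned upward without passing the test. All 43 genes of G2 and mitosis that passed the filter had positive joint changes, with a median of 0.91 beside 0.03 for all genes, and none was called. With EGF in the mix the median was 0.87 and with TCDD in the mix 0.365, also without calls. The median departure from the sum was -0.25. The joint median was 0.45 without IDMB + EGF + TCDD 1 and 1.34 without IDMB + EGF + TCDD 2. Mki67, a marker of cycling cells, measured 16172 and 6758 with both agents and 5736, 2752 and 2871 with the mix (1.55, adjusted p = 0.176 in limma). Cdk1, the mitotic kinase, measured 23679 and 12023 against 10195, 6342 and 8022 (1.07, 0.192), and Top2a, which untangles chromosomes, 10676 and 6036 against 5115, 2723 and 3841 (1.09, 0.252). For all 3 genes joint array 1 was clearly above joint array 2, and both were above the IDMB arrays. For the count of S phase genes, 3.73% of all genes were higher. The median of the S phase genes was 0.42 with EGF in the mix and 0.09 with TCDD in the mix. Of 37 genes of S phase 2 rose, Pold1 and Pole2 (median 0.41), and neither was called without IDMB + EGF + TCDD 1, IDMB + EGF + TCDD 2 or IDMB 2, or with either covariate.

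**Figure D3:**
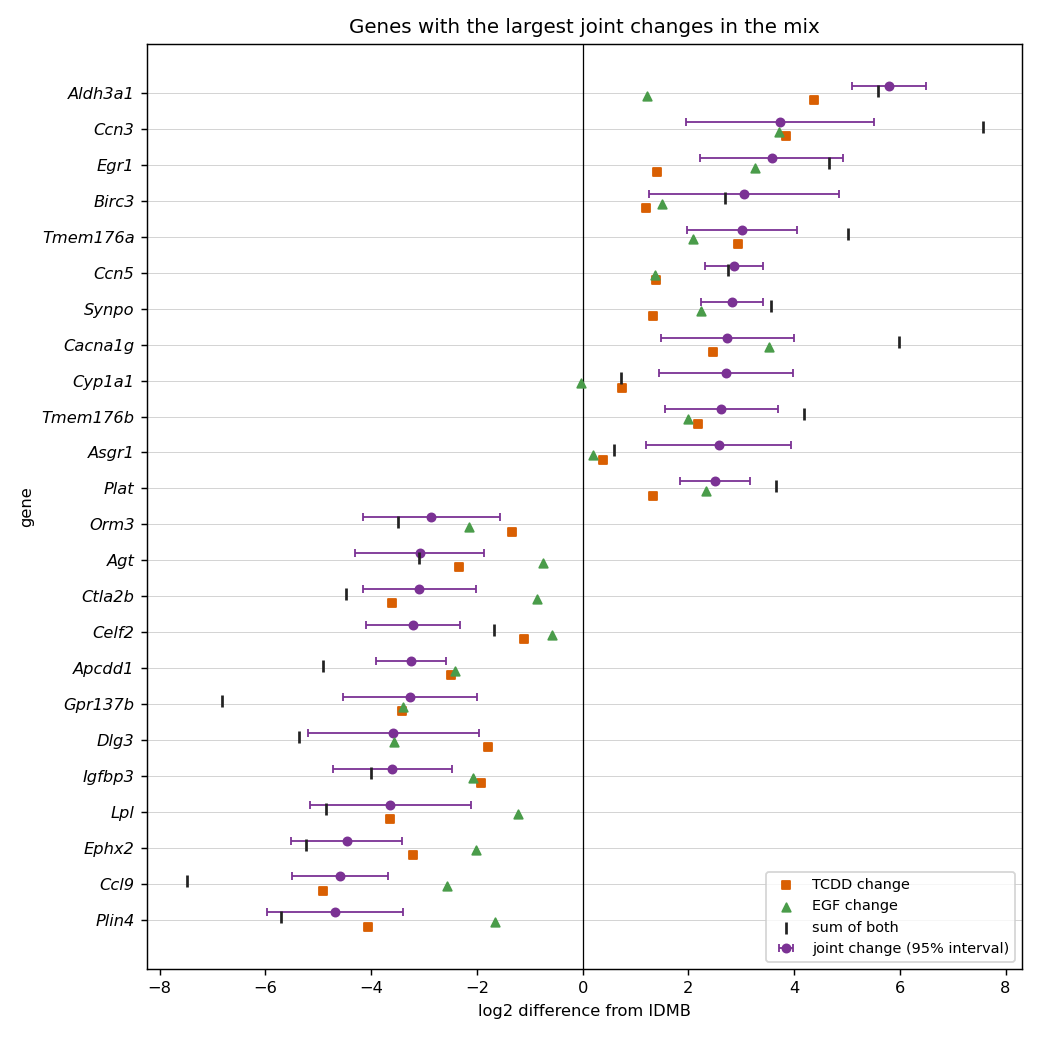
Log2 differences from IDMB for the 12 genes with the largest joint rise and the 12 with the largest joint fall among called genes without overlap: TCDD change (squares), EGF change (triangles), their sum (ticks) and the joint change with its 95% interval (circles). Aldh3a1 is the highest at 5.80 and Plin4 the lowest at -4.69, and the ticks carry their own error, which is not drawn. Of these genes Ccl9 is named below for its called departure from the sum.

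Ccl9, a CC chemokine, had signals of 31144, 79990.4 and 53971 with the mix and 2881 and 1570.5 with both agents. It measured 2339 and 1238 with TCDD and 8624 and 8610.5 with EGF, so the joint arrays overlapped those with TCDD, and the joint fall was 24.1-fold (log2 -4.59, SE 0.43, limma adjusted p = 9.57e-06). Igfbp3, a carrier of insulin-like growth factors, went from 4284, 1847 and 1871 to 284 and 91.3 (at least 12.2-fold lower, log2 -3.60, SE 0.53, limma adjusted p = 0.000782), the second joint array being under the floor. Both falls were kept in each leave-one-out fit.

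Cxcl12, a chemokine of stromal cells, rose from 30474, 33713 and 51478 to 106261 and 127193 (3.1-fold, log2 1.63, SE 0.21, limma adjusted p = 0.000217), and its 2 other probes rose by 1.15 and 2.38. Saa3, an acute phase protein, fell from 14099.5, 36809 and 20342 to 6431 and 5280.0 (log2 -1.91, SE 0.40, limma adjusted p = 0.00992), lost without IDMB + EGF + TCDD 1 (adjusted p = 0.0517) or IDMB + EGF + TCDD 2 (0.108). Of 18 inflammatory and chemokine genes that passed the filter, 5 rose (Cxcl12, Cxcl1, Cxcl5, Vcam1 and Il1rn) and 3 fell (Ccl9, Saa3 and Hp), with counts of 2 and 1 without IDMB + EGF + TCDD 1 and 1 and 1 without IDMB + EGF + TCDD 2, 2 and 3 without IDMB 2, 1 and 1 with the Gapdh ratio and 0 and 1 with the actin ratio. Of 25 interferon genes 4 rose and Ly6e fell (1 and 0 without either joint array, 2 and 0 with the Gapdh and 1 and 0 with the actin ratio). Iigp1, an interferon-induced GTPase, rose from 429, 583 and 1563 to 2924 and 4317 (log2 2.28, SE 0.42, limma adjusted p = 0.00365; 2.58 by a second probe), lost without IDMB + EGF + TCDD 2 (adjusted p = 0.0769). At its second probe Iigp1 had a called departure from the sum of -2.89 (limma adjusted p = 0.0433). The departure at its first probe was not called. Isg15, a ubiquitin-like protein induced by interferon, overlapped (0.58, interval -0.40 to 1.56). Beside the counts of both lists, 3.73% of all genes rose and 3.53% fell.

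In the matrix and the cytoskeleton, 5 of 38 extracellular matrix genes rose and 2 fell, with counts of 0 and 2 without IDMB + EGF + TCDD 1 or IDMB 2, 1 and 4 without IDMB 1, 0 and 1 without IDMB + EGF + TCDD 2, 1 and 1 with the Gapdh ratio and 0 and 1 with the actin ratio. Of all genes 3.73% rose and 3.53% fell. The fall of Lox, which cross-links collagen, was kept in each leave-one-out fit (log2 -1.36, SE 0.20, limma adjusted p = 0.000711). A second Lox probe gave -1.19 and was not called (limma adjusted p = 0.268). Col1a1, the main collagen gene, was not called (0.22, interval -0.15 to 0.59). Of the 5 CCN family genes on the array, Ccn5 and Ccn3 rose and Ccn4 fell (log2 -1.65, SE 0.26, limma adjusted p = 0.00142), and with either covariate only Ccn5 was called. Ccn3 had IDMB signals of 635, 322 and 5427 and joint signals of 10435 and 18264, so array IDMB 3 stood far above the other two. Its rise (log2 3.74, SE 0.84, limma adjusted p = 0.0134) was 30.5-fold without IDMB 3 and 7.43-fold without IDMB 2, and the call was lost without IDMB + EGF + TCDD 1 (adjusted p = 0.0594), IDMB + EGF + TCDD 2 (0.145) or IDMB 2 (0.0565).

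Acta2, smooth muscle actin, fell from 14034, 9113 and 11129 to 3038 and 3474 (3.46-fold, log2 -1.79, SE 0.20, limma adjusted p = 4.66e-05), as far as with only TCDD (2739 and 3929) or only EGF (3287 and 2999.9) in the mix. Tagln, another early smooth muscle gene, did not pass the test (-1.81, adjusted p = 0.0655 in limma). Of 21 contractile genes 2 rose and 2 fell (1 and 1 with either covariate), beside 3.73% and 3.53% of all genes. Pdgfrb, the PDGF receptor of mesenchymal cells, rose from 1977, 1224 and 2371 to 4935 and 5350.2 (log2 1.52, SE 0.24, limma adjusted p = 0.00141). Thy1, a surface protein of fibroblasts, fell from 1739, 1297 and 1272 to 141 and 570.0 (log2 -2.31, SE 0.63, limma adjusted p = 0.0386), the first joint array being just under the floor. The fall was 2.49-fold without IDMB + EGF + TCDD 1 and at least 9.9-fold without IDMB + EGF + TCDD 2, and the call was lost without IDMB + EGF + TCDD 1 (adjusted p = 0.419), IDMB 1 (0.0853), IDMB 2 (0.0842) or IDMB 3 (0.065).

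Of 25 glucocorticoid responsive genes that passed the filter, 2 rose (Timp3 and Fgf7) and 3 fell (Igfbp3, Ctla2b and Saa3), beside 3.73% and 3.53% of all genes, with a median of -0.10 and counts of 0 and 3 without IDMB 2 or IDMB + EGF + TCDD 1, 1 and 5 without IDMB 1, 0 and 2 without IDMB + EGF + TCDD 2, 1 and 2 with the Gapdh ratio and 0 and 0 with the actin ratio. The co-chaperone Fkbp5 had signals of 13338, 9902 and 10312 with the mix and 10241 and 10385 with both agents (-0.10, interval -0.81 to 0.60). The metallothionein Mt1 measured 106434, 162204 and 136056 and 120218 and 111969.9 (-0.20, interval -1.31 to 0.92), and the kinase Sgk1 changed by 1.30 (adjusted p = 0.0762 in limma), so these 3 stayed uncalled. Of 22 genes of the insulin and IGF axis 3 rose and Igfbp3 fell, beside 3.73% and 3.53% of all genes; the counts were 1 and 1 without IDMB + EGF + TCDD 1, 2 and 1 with the Gapdh ratio and 0 and 0 with the actin ratio. Ptpn1, the phosphatase that dampens the insulin receptor, had the largest of these rises (log2 1.56, SE 0.23, limma adjusted p = 0.000933).

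Further genes had large joint changes. Ctla2b, of the cathepsin propeptide-like family, fell from 28167, 14284 and 7135 to 2009 and 1385 (8.52-fold, log2 -3.09, SE 0.51, limma adjusted p = 0.00172); it is close in sequence to Ctla2a, so its probe may detect both. Celf2, an RNA-binding splicing factor, fell from 2032, 1321 and 1805 to 126 and 232 (log2 -3.21, SE 0.42, limma adjusted p = 0.000217), below the arrays with TCDD (623 and 994) and with EGF (883 and 1465), the first joint array being under the floor. Tmem176a, a membrane protein, rose from 1839.6, 2361 and 8540.5 to 28051 and 25852 (log2 3.01, SE 0.49, limma adjusted p = 0.0016). It was 12.9-fold without IDMB 3 against 8.07-fold with all arrays. These 3 calls were kept in each leave-one-out fit.

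The neighbouring Tmem176b rose by 2.63, a call lost without IDMB + EGF + TCDD 1 (adjusted p = 0.0519) or IDMB + EGF + TCDD 2 (0.0544) and 9.92-fold without IDMB 3 against 6.18-fold. Cacna1g, a T-type calcium channel, rose by 2.74, lost without IDMB + EGF + TCDD 1 (adjusted p = 0.133) and 10.4-fold without IDMB 3 against 6.67-fold. Birc3, an inhibitor of apoptosis, rose by 3.05 with IDMB 3 under the floor, lost without IDMB + EGF + TCDD 1 (adjusted p = 0.222), IDMB + EGF + TCDD 2 (0.173), IDMB 2 (0.12) or IDMB 3 (0.0964). Asgr1, a subunit of the asialoglycoprotein receptor, stayed under the floor on each IDMB array and measured 1031 and 708 with both agents, at least 5.95-fold higher, a call lost without IDMB + EGF + TCDD 1 (adjusted p = 0.204), IDMB + EGF + TCDD 2 (0.11) or IDMB 2 (0.0593). Each of these 4 calls was thus lost without at least 1 array.

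Calls were also lost for 3 more of the 12 largest falls. Dlg3, a synaptic scaffold, fell by 3.58 on the log2 scale, lost without IDMB + EGF + TCDD 1 (adjusted p = 0.0581) or IDMB + EGF + TCDD 2 (0.103) (2747, 1417 and 1949 against 187 and 95.7, the last under the floor). Gpr137b, a lysosomal membrane protein, fell by 3.27 on the log2 scale (15275, 14109.5 and 3914 against 1156 and 834), lost without IDMB + EGF + TCDD 2 (adjusted p = 0.0663); it was 15-fold without IDMB 3 against 9.63-fold. It shares sequence with the pseudogene Gpr137b-ps, so their signals are uncertain. Orm3, an acute phase orosomucoid with near-identical paralogs, fell by 2.86 on the log2 scale, 11.7-fold without IDMB + EGF + TCDD 1 and 4.55-fold without IDMB + EGF + TCDD 2, and was lost without IDMB + EGF + TCDD 2 (adjusted p = 0.168).

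For a small set of genes the joint change departed from the sum of the separate changes. The departure is the joint change minus that sum on the log2 scale, where 0 means that the folds of the 2 agents multiply. The sum counts the IDMB arrays in both of its terms and the joint change in 1, so a high or low IDMB mean moves the sum and the departure in opposite directions. Of the 5436 genes, 33 (0.607%) lay above the sum and 23 (0.423%) below it, and the median over all genes was 0.01. By probes, 70 were called. The count was 2 when only the 9 arrays with the mix were fitted, 1 and 4 with the Gapdh and actin ratios as covariates, and 1 without IDMB + EGF + TCDD 2. Without any other single array of the 9 the count was 7 to 80 (22 without IDMB + EGF + TCDD 1, 7 and 14 without IDMB + TCDD 1 and 2, 10 and 45 without IDMB + EGF 1 and 2, and 12 without IDMB 2).

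Cd24a, the gene of a small glycosylated surface protein that marks adipocyte precursors, was the only gene of the 56 whose departure was called in each of the 9 leave-one-out fits. It had signals of 2217, 1984 and 2226 with the mix, 4974 and 3878 with TCDD, 7005 and 6977 with EGF and 2841 and 2478 with both. Each single agent in the mix raised it, and with both it stood little above the mix and well under either single agent in the mix. The joint change was 0.31 (interval -0.07 to 0.69) against a sum of 2.75. The departure was -2.44 (SE 0.27, limma adjusted p = 0.000753), 5.41-fold below the sum, and 4.78 to 6.13-fold with 1 array left out. It was called with the mix arrays only (adjusted p = 0.0256) and with the Gapdh (0.0253) and the actin ratio (0.00697) as covariates.

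Pum3, a nucleolar RNA-binding protein of ribosome assembly, was the other departure called with the mix arrays only (adjusted p = 0.03). It had signals of 13696, 12906 and 8516 with the mix, 3206 and 3431 with TCDD, 2778 and 2899 with EGF and 4492 and 4671 with both, so the joint level lay above both single ones. Its departure was 2.48 (SE 0.34, limma adjusted p = 0.00587), lost without IDMB + EGF + TCDD 2 (adjusted p = 0.06) and with the Gapdh ratio (0.238).

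Mme, the membrane peptidase neprilysin, showed a pattern like Cd24a. It measured 767, 461 and 769 with the mix, 3346 and 1809 with TCDD, 2550.2 and 3429 with EGF and 1623 and 904 with both, a departure of -3.21 (SE 0.50, limma adjusted p = 0.00951) that was lost without IDMB + EGF + TCDD 2 (adjusted p = 0.07) or IDMB + TCDD 1 (0.0554). Ggh, the lysosomal enzyme that trims folate polyglutamates, measured 4901, 3744 and 6359 with the mix, 6878 and 5842 with TCDD and 7904 and 6976 with EGF, but 3005 and 2275 with both, under all 7 other arrays with the mix. Its departure was -1.88 (SE 0.30, adjusted p = 0.00951 in limma), lost without IDMB + EGF + TCDD 2 (adjusted p = 0.0726), IDMB + EGF 1 (0.0675) or IDMB + TCDD 1 (0.0554). Its joint fall (-0.90, adjusted p = 0.0132) was lost without IDMB + EGF + TCDD 2 (adjusted p = 0.192).

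Acta2 fell about equally with TCDD, with EGF and with both, as given above, so its departure was 1.83 (SE 0.29, limma adjusted p = 0.00951), lost without IDMB + EGF + TCDD 2 (adjusted p = 0.07) or IDMB + TCDD 1 (0.0554). Gpam behaved likewise, with signals of 4422 and 5349 with TCDD, 3769 and 3931 with EGF and 3788 and 3177 with both. Its departure of 1.47 (adjusted p = 0.0433 in limma) was lost in 7 of the 9 leave-one-out fits (adjusted p 0.0654 to 0.134) and kept without IDMB 1 or IDMB 3. Ccl9, whose separate falls of -4.91 and -2.57 sum to -7.48, had a departure of 2.89 (adjusted p = 0.0433 in limma). It was lost in 8 of the 9 fits (0.0583 to 0.183) and kept without IDMB 1.

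Saa3 measured 9462 and 12364 with TCDD, 1646 and 1802 with EGF and 6431 and 5280.0 with both, so the joint arrays lay between the single agents. Its departure of 2.78 (adjusted p = 0.0433 in limma) was lost in 7 of the 9 fits (0.0676 to 0.132) and kept without IDMB 1 or IDMB 3. Pea15a, an adaptor that keeps ERK in the cytoplasm, had the largest departure below the sum. It measured 396, 347 and 311 with the mix, 3034 and 1642 with TCDD, 3604 and 2412 with EGF and 1642 and 426 with both, and the 2 joint arrays differed widely. The departure was -4.49 (SE 0.75, limma adjusted p = 0.014; 11.5 to 44.2-fold with 1 array left out), lost without IDMB + EGF + TCDD 2 (adjusted p = 0.07), IDMB + EGF 1 (0.0804) or IDMB + TCDD 1 (0.0643).

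Myl9, a smooth muscle myosin light chain, had the largest departure above the sum. It measured 1537, 1282 and 488 with the mix, was under the floor on all arrays with TCDD (40.2 and 80.7) or EGF (76.1 and 84.4), and measured 84.4 and 537 with both, where only the second array was above the floor. Its fitted departure of 3.73 (adjusted p = 0.0433 in limma) thus depends on the floor, ran from 6.88 to 25.8-fold with 1 array left out and was lost in 7 of the 9 fits (0.0696 to 0.192), kept without IDMB 3 or IDMB + EGF + TCDD 1.

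The rule named 8 further genes with a departure, and the limma call of each was lost in 6 to 9 of the 9 leave-one-out fits. Below the sum were Fbn2, a microfibril protein (-2.46; 0.0628 to 0.155), Mrc2, a collagen receptor (-1.88; 0.0587 to 0.129), Pou6f1, a POU transcription factor (-2.34; 0.0526 to 0.204), and Snapc3, a subunit of the snRNA activating complex (-3.24; 0.0548 to 0.16), where the range is that of the adjusted p in the fits that lost the call. Above the sum were Slc20a1, a phosphate transporter (3.71; 0.0526 to 0.185), Gpr137b-ps (3.22; 0.0511 to 0.16), Gja1, the gap junction protein connexin 43 (2.91; 0.0643 to 0.175), and Gspt2, a translation termination factor (2.51; 0.052 to 0.185). Slc20a1 lay 13.1-fold above the sum, 8.29-fold without IDMB + EGF 1, 8.36-fold without IDMB + TCDD 2, 20.8-fold without IDMB + EGF 2 and 20.6-fold without IDMB + TCDD 1. Gja1 lay 7.53-fold above it, 4.77-fold without IDMB + EGF 1 and 11.9-fold without IDMB + EGF 2.

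**Figure D4:**
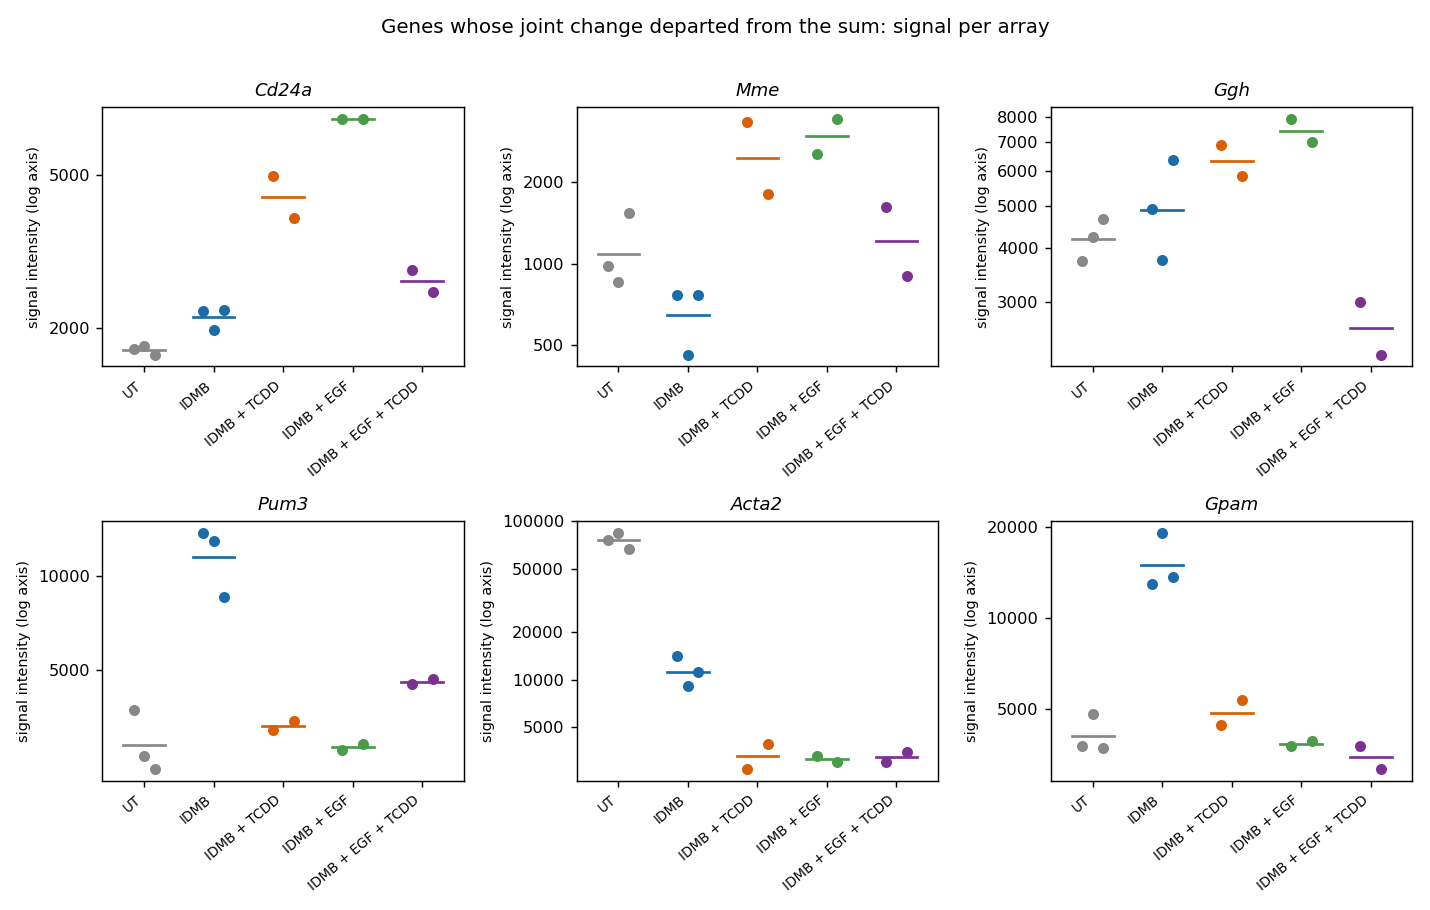
Signal per array (log axis) of Cd24a, Mme, Ggh, Pum3, Acta2 and Gpam in the UT, IDMB, IDMB + TCDD, IDMB + EGF and IDMB + EGF + TCDD groups; points are arrays and bars are the means of the log2 values. Cd24a and Mme are raised by each agent and lower with both, Ggh is lowest with both, and Acta2 and Gpam fall about equally in the 3 groups with an agent.

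Without the mix the same departure, EGF+TCDD minus the sum over UT, was called for 17 genes (0.313%). The difference between the departures with and without the mix was called for 0 genes (0%) and 0 probes in limma, with 493 of 7134 probes under an unadjusted p of 0.05. Cd24a departed by -1.23 without the mix (interval -1.80 to -0.66, adjusted p = 0.0566 in limma), and the difference of -1.20 had an interval of -2.01 to -0.40. For Pum3 the departure was 0.32 without the mix, and the difference was 2.16 (interval 1.15 to 3.17, adjusted p = 0.244 in limma).

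Against UT, 359 genes (6.6%) were higher and 355 (6.53%) lower on the joint arrays; this comparison shares the joint arrays with the one above. By probes 867 were called, against 274 and 47 with the Gapdh and the actin ratio as covariates. List counts against UT are given without covariates. Several fat cell genes stood near their UT level. Ephx2 had UT signals of 121, 290.5 and 291 and differed by -0.08 (interval -1.13 to 0.97), Adipoq (244, 332 and 311) by 0.02 (interval -1.05 to 1.09), and Plin2 (10551, 19133 and 16950.3) by -0.12 (interval -0.59 to 0.34). Apcdd1 differed by 0.10 (interval -0.56 to 0.77). These intervals still allow differences in either direction. Pnpla2 stayed 1.95-fold above UT (log2 0.96, SE 0.19, limma adjusted p = 0.00333), lost without IDMB + EGF + TCDD 1 (adjusted p = 0.0912). Plin4 was below UT (796, 1441 and 789), at least 6.74-fold (log2 -2.75, SE 0.61, limma adjusted p = 0.00746), lost without IDMB + EGF + TCDD 1 (adjusted p = 0.0619) or IDMB + EGF + TCDD 2 (0.0534). Of the 21 adipocyte genes tested, 4 were above and 2 below UT.

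Other genes stood far from UT. Fkbp5 was 18.2-fold above UT on the joint arrays (log2 4.19, SE 0.33, limma adjusted p = 6.75e-07), Sgk1 16.1-fold (log2 4.01, SE 0.42, limma adjusted p = 1e-05) and Cebpb 3.88-fold (log2 1.96, SE 0.18, limma adjusted p = 3.39e-06). Of the 25 glucocorticoid responsive genes 16 were above UT and none below, beside 6.6% and 6.53% of all genes. The mix without either agent already put 19 of the 25 above UT and 2 below. Acta2, with UT signals of 76660.5, 84662 and 67138, was 23.3-fold lower (log2 -4.54, SE 0.20, limma adjusted p = 6.02e-10), and 12 of 21 contractile genes were below UT and 1 above. With the mix but neither agent, 14 of the 21 were below UT and none above. Of all 5436 genes, 390 were higher and 442 lower with the mix than in UT. Ccn5 was 2.58-fold above UT (log2 1.37, SE 0.26, limma adjusted p = 0.00261).

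The joint change differed between cells with and without the mix for 46 genes (0.846%), and 4 of the 46 were called in each of the 10 leave-one-out fits. Of the genes named here Apcdd1 was among those 4. EGF plus TCDD changed it by -0.16 without the mix and by -3.25 with it, a difference of -3.08 (SE 0.44, limma adjusted p = 0.00763). Ccn5 rose by 0.62 without the mix, not called, and its difference of 2.25 (limma adjusted p = 0.0102) was lost without EGF+TCDD 1 (adjusted p = 0.066) or IDMB + EGF + TCDD 2 (0.0645). Plin2 (-0.48 without the mix, difference -1.99, limma adjusted p = 0.0102) lost its call without IDMB + EGF + TCDD 2 (adjusted p = 0.0585), and Gpam (-0.18, -1.93, 0.00953) without IDMB + EGF + TCDD 2 (adjusted p = 0.0585). Ephx2 (-0.51, -3.96, 0.0149) lost it without EGF+TCDD 1 (adjusted p = 0.0781) or IDMB + EGF + TCDD 2 (0.0932), and its difference, which depends on the floor, was 23.5-fold without IDMB + EGF + TCDD 1 and 10.2-fold without IDMB + EGF + TCDD 2.

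For Tiparp and Fosl1 the joint rise was smaller with the mix. EGF plus TCDD raised Tiparp by 3.91 without the mix and by 1.55 with it, where the IDMB level already stood 4.84-fold above UT. The difference of -2.36 (adjusted p = 0.0239 in limma) was lost in 6 of the 10 leave-one-out fits (0.0557 to 0.142), kept without IDMB 1, IDMB 3, UT 1 or UT 3. Fosl1 changed by 3.62 without the mix and by 0.18 with it (difference -3.44, adjusted p = 0.0114 in limma), lost without EGF+TCDD 1 (adjusted p = 0.066), IDMB + EGF + TCDD 1 (0.0535) or IDMB + EGF + TCDD 2 (0.0585). For Cyp1b1 the difference was not called (1.47 without the mix, difference 0.04, interval -0.52 to 0.59).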

How the data were processed

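Each of the 18 arrays carried 12488 probes, of which 66 were controls. The deposited signal intensity values were scaled by the authors to a common level: per the values, the mean after trimming 2% at each end was 2499.5 to 2499.6 on every array. The sources used here do not give the software behind them. From these intensities, log2 values were computed here after a floor at the 20th percentile (143.5). GEO's platform annotation gave 1 gene symbol for 10833 probes, several for 396 and none for 1193, and a gene was read from its probe with the highest mean signal.

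One model of 8 group means over 18 arrays was fitted with limma 3.58.1 in R 4.3.3 (lmFit, eBayes with trend; 10 residual and 6.03 prior degrees of freedom), with Benjamini-Hochberg adjustment over 7134 probes, and tested on simulated data. Named genes were Ccn5, Synpo, Apcdd1 and Plin4, the 12 largest called joint changes and the 8 largest called departures in each direction, anchors of the gene lists, and list members that passed the test. The members and lists were chosen with earlier results of these data known. Alternatives covered scaling, floor, filter, arrays fitted, replicate block, variance model, array weights, control ratios and each array left out. Leaving out UT arrays, or arrays without the mix in the difference tests, and the alternatives for list counts were added after seeing the data.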

Additional observations from a re-analysis of the deposited data

Results flagged for a closer look

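These results were singled out because an effect differed between 2 settings by a test of the difference itself in limma, adjusted over all probes. In the first set the joint change differed between cells with and without the mix, given as the log2 change with the mix minus that without. The difference was positive for Ccn5 (2.25), Synpo (1.84), Cxcl12 (1.62) and Pdgfrb (1.61). Among genes of lipid storage it was negative for Ephx2 (-3.96), Plin2 (-1.99), Gpam (-1.93), Abhd5 (-1.92) and Pnpla2 (-1.64). It was also negative for Klf5 (-3.78), Igfbp3 (-3.60), Fosl1 (-3.44), Apcdd1 (-3.08), Celf2 (-2.83), Tiparp (-2.36) and Pum3 (-1.53). Of these 16 differences only that of Apcdd1 was called in each of the 10 leave-one-out fits. Igfbp3 was under the floor on all UT arrays, so a fall without the mix could not be measured. The Klf5 difference was 28.9-fold without IDMB + EGF + TCDD 1 and 6.5-fold without IDMB + EGF + TCDD 2.

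In the second set the TCDD change in the mix differed with and without EGF, which is the departure from the sum. It was negative for Pea15a (-4.49), Snapc3 (-3.24), Mme (-3.21), Fbn2 (-2.46), Cd24a (-2.44), Pou6f1 (-2.34), Mrc2 (-1.88) and Ggh (-1.88). It was positive for Myl9 (3.73), Slc20a1 (3.71), Gpr137b-ps (3.22), Gja1 (2.91), Ccl9 (2.89), Saa3 (2.78), Gspt2 (2.51), Pum3 (2.48), Acta2 (1.83) and Gpam (1.47). Of these 18 departures only that of Cd24a was called in each of the 9 leave-one-out fits.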

How the results depend on the processing

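None of the 55 joint calls and 18 departures among the genes named in the text changed its direction under any alternative run. Other calls were compared by count only. Counts of called probes moved past 1.5 times the reported count as follows. The 486 joint calls became 309 with no filter on low signal, 283 with the mix arrays only, 98 with the Gapdh and 45 with the actin ratio as a covariate, and 119 to 441 with 1 array left out. The 70 departures became 38 with median scaling, 27 with no filter, 33 with no variance trend, 2 with the mix arrays only, 1 and 4 with the Gapdh and actin ratios, and 1 to 80 with 1 array left out. The 470 TCDD calls in the mix became 286 with the mix arrays only, 267 with the Gapdh ratio, and 151 to 507 with 1 array left out. The 271 EGF calls became 136 with the mix arrays only, 93 with array weights, 166 with the actin ratio, and 30 to 260. The 26 departures without the mix became 13 with median scaling, 41 with the floor at the 30th percentile, 15 with no variance trend, 346 with array weights, 1 and 6 with the 2 ratios, and 1 to 112. The 54 differences of the joint change became 23 with no filter, 130 with array weights, 24 with the actin ratio, and 7 to 72. The 0 differences of the departure became 6 with no filter and 0 to 5 with 1 array left out. The 867 differences from UT became 274 and 47 with the 2 ratios and 322 to 742 with 1 array left out. Deviations of same-numbered arrays in the groups with the mix correlated at -0.101 to 0.199. In a group of 2 arrays the deviations mirror each other, so these few values cannot decide whether array numbers pair the samples. With the replicate number as a block, the fit gave 622 joint calls, 162 departures and 441 EGF calls. It also gave 178 departures without the mix, 91 differences of the joint change and 1 difference of the departure. Cebpa was called under the block, with a joint change of -0.99 (adjusted p = 0.0411) and a departure of -1.85 (0.0328). Of the genes named in the text, 31 of 55 joint calls and 1 of 18 departures were kept with each array left out in turn. Leaving out an array or adding a covariate also lowers the degrees of freedom. The cause of these moves was not tested. Pools of RNA on 2 or 3 arrays a group limit the precision, and signals near the floor of 143.5 give only bounds.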

Other observations

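Of 23 Wnt pathway genes that passed the filter, Apcdd1 and Sfrp2, a secreted Wnt antagonist, fell and Apc, which destabilises beta-catenin, rose, beside 3.53% of all genes lower and 3.73% higher; with the Gapdh ratio as a covariate the counts were 1 and 1, and with the actin ratio 1 and 0. They were 1 and 0 without IDMB 2 or IDMB 3, 3 and 0 with median scaling and 2 and 0 with quantile normalization. Of 10 cAMP responsive genes 2 rose (Bdnf and Fos; 0 with either covariate), of 24 genes of the unfolded protein response Dnajb9 fell (not with either covariate), and none of 5 EGF receptor family and ligand genes or of 17 D cyclins and CDK inhibitors was called by limma. Of the G2 and mitosis genes that passed the filter, 35 had a promoter in the RefSeq table, and 24 of the 35 (68.6%) held TTTGAA or its reverse complement TTCAAA, the core of the cell cycle homology region, beside 17.9% of all promoters of that length. The 35 were counted by gene and the background by promoter, so the shares are not fully alike. This describes the sequences, and none of these genes passed the test for the joint change.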
